A study of Rattus norvegicus with 4 samples.

Results

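Plk1, Birc5, Aurka, Aurkb, Ccnb1, Cdk1, Cdc20 and Top2a are genes of mitosis, and they were followed over 4 doses of hydrogen peroxide (H2O2) in NRK-52E, a line of epithelial cells from rat kidney tubules. They were chosen by name, and the probe of each was found through its RefSeq accession, with the brightest probe taken where a gene had several. Of the 8 genes, 7 had a named probe, among 8957 named genes on the array. Top2a, which encodes a DNA topoisomerase, had none and is left out. Cells grown to full confluence were exposed for 1 h to medium with 0, 0.003, 0.006 or 0.009% H2O2, washed, and kept for 12 h in medium without serum, the 0% culture being the control. Total RNA of each culture was labelled with Cy3 and hybridised to 1 Agilent array, so each dose is 1 culture with no replicate, and all 4 cultures, the control included, had been without serum.

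Entry into mitosis is driven by the kinase Cdk1 bound to cyclin B, and the kinases Plk1 and Aurora A help to switch this complex on. Later, Aurora B and survivin act together in the chromosomal passenger complex, which corrects the attachment of chromosomes to the spindle, and Cdc20 activates the anaphase-promoting complex (APC/C), the ubiquitin ligase that destroys cyclin B and securin. In human and mouse cells the RNAs of these genes build up in G2 and mitosis. In arrested cells they are held low, in part through a promoter element called the CHR (cell cycle genes homology region). Many of these promoters also hold a second element, the CCAAT box, which binds the factor NF-Y.

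The windows before the gene start of 5 members are shown because those genes shared a course over dose with 75th percentile scaling and each window holds a match to at least 1 of these 2 elements. They were taken from RefSeq on the GRCr8 assembly and run from 250 bases before the start to 15 bases from it onwards, 5′ to 3′ on the strand of the gene. Capitals mark CCAAT, or TTTGAA or TTCGAA for the CHR, on either strand. The windows lie at chr20:19265043-19265307 (plus strand) for Cdk1, chr2:33655211-33655475 (minus strand) for Ccnb1, chr1:186147408-186147672 (plus strand) for Plk1, chr5:137255785-137256049 (minus strand) for Cdc20 and chr10:103571896-103572160 (plus strand) for Birc5.
Cdk1: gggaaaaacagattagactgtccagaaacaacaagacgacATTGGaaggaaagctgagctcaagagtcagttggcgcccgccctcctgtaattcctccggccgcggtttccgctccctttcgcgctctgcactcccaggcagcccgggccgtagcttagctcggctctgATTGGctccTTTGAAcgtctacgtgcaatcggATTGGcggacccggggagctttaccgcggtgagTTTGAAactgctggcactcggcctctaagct
Ccnb1: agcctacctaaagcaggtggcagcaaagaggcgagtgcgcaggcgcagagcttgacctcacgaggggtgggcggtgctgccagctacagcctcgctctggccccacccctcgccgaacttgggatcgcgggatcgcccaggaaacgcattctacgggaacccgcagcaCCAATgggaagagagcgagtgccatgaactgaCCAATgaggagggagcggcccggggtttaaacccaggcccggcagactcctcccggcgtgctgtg
Plk1: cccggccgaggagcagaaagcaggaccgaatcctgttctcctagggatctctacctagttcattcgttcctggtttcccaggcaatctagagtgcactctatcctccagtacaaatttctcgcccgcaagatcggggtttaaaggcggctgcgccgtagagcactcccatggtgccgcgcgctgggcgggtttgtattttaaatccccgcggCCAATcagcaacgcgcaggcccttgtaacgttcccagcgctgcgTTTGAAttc
Cdc20: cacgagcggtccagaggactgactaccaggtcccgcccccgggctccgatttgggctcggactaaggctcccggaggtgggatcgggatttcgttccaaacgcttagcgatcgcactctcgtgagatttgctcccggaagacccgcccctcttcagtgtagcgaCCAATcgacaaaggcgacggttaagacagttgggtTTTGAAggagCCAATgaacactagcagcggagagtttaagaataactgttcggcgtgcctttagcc
Birc5: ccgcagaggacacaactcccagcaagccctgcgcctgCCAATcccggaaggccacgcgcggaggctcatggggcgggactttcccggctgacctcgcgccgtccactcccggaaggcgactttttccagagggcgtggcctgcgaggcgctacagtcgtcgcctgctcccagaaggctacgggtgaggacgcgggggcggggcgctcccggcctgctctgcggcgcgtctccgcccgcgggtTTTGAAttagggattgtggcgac

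RefSeq windows were matched for 6 of the 7 members, all but Aurkb. A CCAAT box was found in 5 of the 6 and a CHR in 4, and 4 held both. A narrower rule, used first and widened to all matched windows after the matches were seen, kept the 4 windows whose start lay within 100 bases of the outer bound of the gene, and of these 4 held a CCAAT box, 3 a CHR and 3 both. Of all 33469 windows of this length in the table, 35.2% held a CCAAT box, 18% a CHR and 6.8% both. Cdk1 had CCAAT boxes whose first bases lay 210, 81 and 49 bases before the start and CHRs at 72 and 16 bases before it. Ccnb1 had CCAAT boxes at 82 and 50 bases before the start, and no CHR in these letters. In Plk1 the box lay 38 bases before the start and the CHR 6 bases after it, in Cdc20 the boxes lay at 86 and 41 and the CHR at 51 bases before it, and in Birc5 the box lay at 213 and the CHR at 8 bases before it. The window of Aurka held neither, but it began 2121 bases inside the outer bound of the gene, and that of Birc5 4777 bases inside. A match is a run of letters and does not show that a factor was bound.

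**Figure D1:**
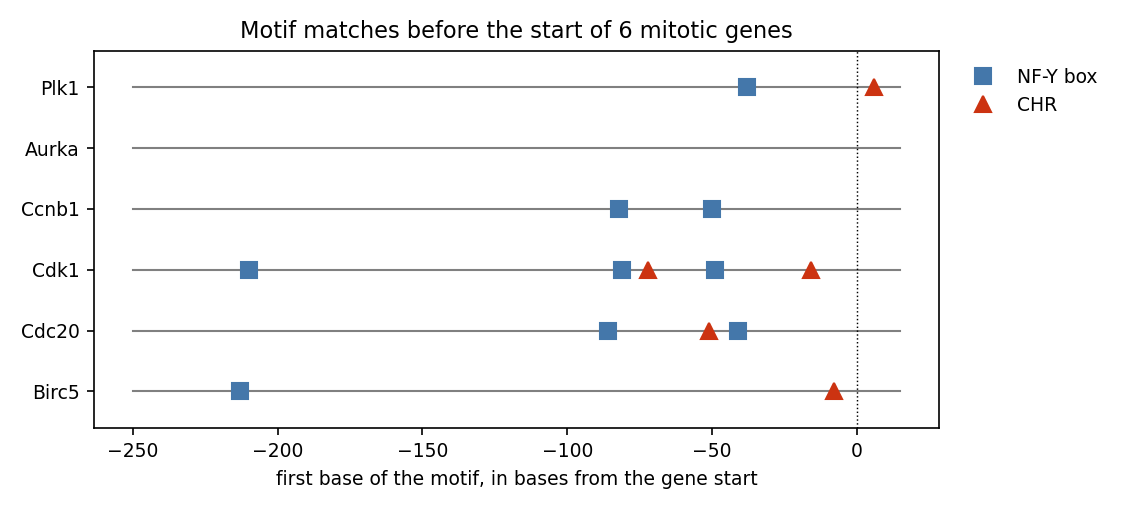
Position of CCAAT boxes (squares, NF-Y box) and CHRs (triangles) in the windows of 6 mitotic genes, as the first base of each match in bases from the gene start (dotted line at 0). Cdk1 has the most matches, 3 squares and 2 triangles, and Aurka has none.

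The 4 arrays lay on 1 slide and were read in 1 scan, and their position on it followed the dose, so position and dose cannot be told apart. Each held 43379 noncontrol spots, none was saturated, and 51.8 to 54.9% of probes were well above background. The 75th percentile of the signals was 180, 168, 158 and 121 from the control to 0.009%, and levels are given as the log2 of the signal over this percentile. The geometric mean of 8 spike-in probes moved the other way, at 1969, 2084, 2529 and 3018. Scaling to the spike-ins therefore lowered all differences from the control by 0.19, 0.55 and 1.19 (log2) over the 3 doses, and scaling to the array median lowered them by 0.15, 0.31 and 0.56. The sources used here do not give the amounts of RNA and spike-in per labelling. Errors are those the scanner software gives for spots, so the spread between cultures is not in them. Of 14 tubular epithelial markers on the array, 8 or 9 were well above background on each array, Krt8 among them on all 4, while Epcam, Pax8 and Cldn1 were on none.

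At 0.003% H2O2, the lowest dose, 6 of the 7 mitotic genes were below the control, and with 75th percentile scaling these 6 were higher at each further dose than at the dose before it. All 7 were well above background on all 4 arrays. At 0.003%, Plk1 and Cdc20 were at least 2-fold lower and Cdk1 lay just short of that, while Aurka alone was above the control. At 0.009%, Plk1, Cdk1 and Cdc20 lay at or below the control and Birc5, Aurkb, Ccnb1 and Aurka above it, but this last part depended on the scaling. In whole cultures, fewer cells in mitosis and less of these RNAs per cell cannot be told apart.

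**Figure D2:**
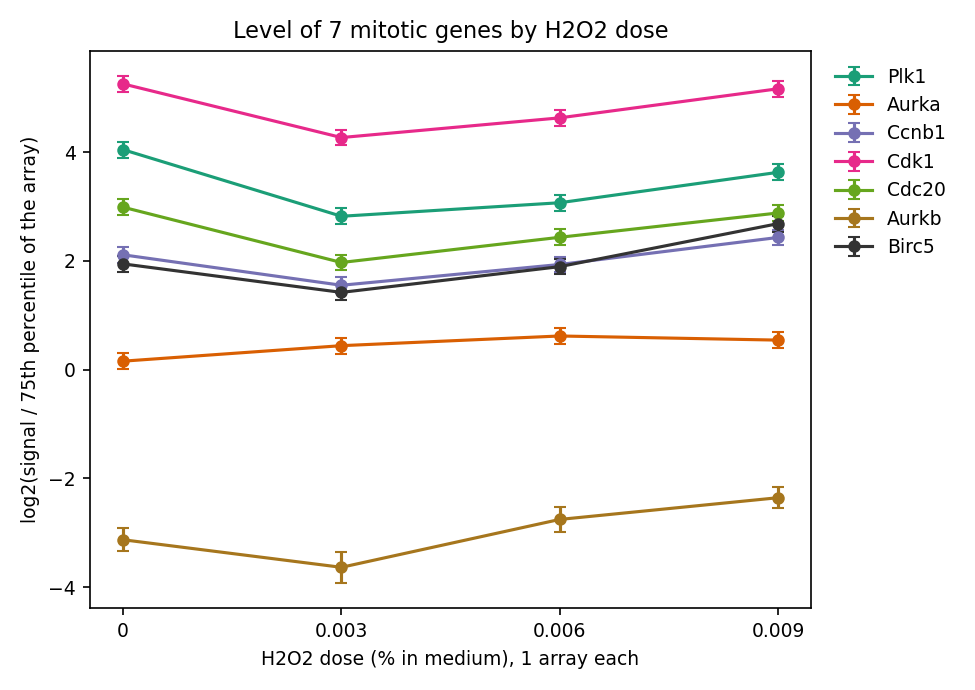
Level of 7 mitotic genes, as log2 of the signal over the array's 75th percentile, against H2O2 dose. Each point is 1 array and bars are the spot error, and 6 lines have their lowest point at 0.003%, that of Aurka at 0.

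Cdk1, the kinase that starts mitosis, had signals of 6888, 3231, 3919 and 4353 from the control to 0.009%, which are levels of 5.26, 4.27, 4.63 and 5.17. The control was highest and 0.003% lowest, and the level at 0.009% lay within the spot error of the control. Its differences from the control were -0.99 ± 0.20, -0.62 ± 0.20 and -0.09 ± 0.20 (log2). Ccnb1, which encodes cyclin B1, the partner of Cdk1, had signals of 780, 492, 605 and 654, or levels of 2.11, 1.55, 1.94 and 2.43. Its level at 0.006% was within the spot error of the control and at 0.009% was above it. The differences of Ccnb1 were -0.56 ± 0.20, -0.18 ± 0.20 and 0.32 ± 0.20. Its second, dimmer probe gave -1.05 ± 0.25, -0.26 ± 0.23 and 0.11 ± 0.23, so the probes had the same signs and differed most at 0.003%.

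Plk1, which phosphorylates many proteins of the spindle, centrosomes and cyclin B, was the member furthest below the control. Its signals were 2979, 1185, 1328 and 1501, or levels of 4.05, 2.82, 3.07 and 3.63. Every neighbouring pair in this order of levels differed by more than the spot error. The differences were -1.22 ± 0.20, -0.98 ± 0.20 and -0.42 ± 0.20, and the second probe of Plk1 gave -1.11 at 0.003% and -0.60 at 0.009%, from signals of 1284, 554, 564 and 571 over the 4 doses. Among features well above background on both arrays, 9.08, 11.2 and 25.2% lay lower than Plk1 at the 3 doses, a rank that no scaling of a whole array moves.

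Aurka encodes Aurora A, a kinase of centrosomes that activates Plk1. It went the other way, with signals of 201, 228, 243 and 177 and levels of 0.16, 0.44, 0.62 and 0.54. The 3 treated cultures lay within the spot error of each other in neighbouring pairs and above the control. Its differences were 0.28 ± 0.21, 0.46 ± 0.21 and 0.39 ± 0.21, but at 0.009% it was -0.17 when arrays were scaled to their median and -0.80 when scaled to the spike-ins, which also gave -0.09 at 0.006%. Set against Aurka within each array, where a scaling of the array cancels, the difference of Plk1 at 0.003% was -1.51 ± 0.29. The same contrast was -1.30 ± 0.29 for Cdc20, -1.27 ± 0.29 for Cdk1, -0.84 ± 0.29 for Ccnb1, -0.81 ± 0.29 for Birc5 and -0.79 ± 0.41 for Aurkb. At 0.003% all 6 thus lay below Aurka by more than the spot error. Because Aurka alone was above the control there, the sign of these contrasts was fixed beforehand. All 6 also share the values of Aurka, so they are not independent of each other. At 0.009% the contrast remained beyond it for Plk1 (-0.80), Cdc20 (-0.49) and Cdk1 (-0.48), lay within it for Ccnb1 (-0.07), and was positive for Birc5 (0.35 ± 0.29) and Aurkb (0.39 ± 0.36). Quantile normalization and normexp do not cancel in this contrast, and at 0.009% they turned that of Aurkb to -0.04 and -0.18. At 0.003% normexp gave -0.38 for Aurkb, within the spot error.

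Of the members, the chromosomal passenger genes Birc5 and Aurkb were furthest above the control at 0.009% with 75th percentile scaling, and both were below it with spike-in scaling (-0.45 and -0.41). Birc5, which encodes survivin, had signals of 695, 449, 588 and 780 and levels of 1.95, 1.42, 1.90 and 2.69. Its differences were -0.52 ± 0.20, -0.05 ± 0.20 and 0.74 ± 0.20, so that 0.006% lay within the spot error of the control. Aurkb, the kinase of the complex, was dim, with signals of 20.6, 13.5, 23.4 and 23.7 and levels of -3.13, -3.63, -2.75 and -2.35. Its differences were -0.51 ± 0.35, 0.37 ± 0.31 and 0.77 ± 0.29, and with normexp background correction they were nearer to 0, at -0.16, 0.09 and 0.12, the last below those of Ccnb1 (0.33) and Aurka (0.29). In the signals before any scaling, Birc5 and Aurkb were the members that were brighter at 0.009% than in the control, but both by less than the spot error. Cdca8, which encodes borealin, a further subunit, was at 0.04, 0.12 and 0.38. Incenp, the scaffold of the complex, had no named probe.

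Cdc20, the activator of the APC/C, had signals of 1431, 657, 855 and 894, or levels of 2.99, 1.97, 2.44 and 2.88. The control was highest, with 0.009% within the spot error of it, and the other doses lay below both. Its differences were -1.02 ± 0.20, -0.55 ± 0.20 and -0.11 ± 0.20.

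At 0.003%, 2 of the 7 members, Plk1 and Cdc20, were at least 2-fold lower and none was 2-fold higher, where 13.6% of all 22225 features compared were 2-fold lower and 15.2% higher. Being below the control by any amount, as 6 of the 7 were, held for 48.4% of the features well above background on both arrays. The median of the members was -0.56, against 0.03 for all features. At 0.006% no member passed 2-fold in either direction, where 10.8% of features were lower and 15.5% higher by that much, 5 of the 7 were below the control (47.9% of features), and the medians were -0.18 for the members and 0.05 for all features. At 0.009% again no member passed 2-fold, where 7.72% of features were lower and 16.9% higher, 3 were below the control (45.3% of features), and the medians were 0.32 and 0.16.

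The signs at 0.003% were the same under all 8 alternatives of scaling, background, probe and spot choice, with the 6 genes below the control and Aurka above it. Not all of these were separate checks. The deposited values repeat array median scaling, and a stricter filter and keeping all spots left the values of the members unchanged. Aurka was, however, within its spot error of 0.21 with spike-in scaling (0.10) and with array median scaling or the deposited values (0.14). Aurkb was within its spot error of 0.35 with normexp (-0.16). At 0.009% the signs depended on the scaling. With array median scaling 5 of the 7 were below the control, all but Birc5 at 0.18 and Aurkb at 0.21. The median of all features was then -0.40, and 3 of the 7 lay below that median. With spike-in scaling all 7 were below the control, between -1.60 for Plk1 and -0.41 for Aurkb. With spike-in scaling Plk1, Cdk1 and Cdc20 were at least 2-fold lower at all 3 doses, a size that 17.9, 26.7 and 54.1% of all features reached. Over all features, the median difference with spike-in scaling was -1.08 at 0.009%, below that of the members at -0.87. Of the general reference genes, Gapdh was at -0.19 and Actb at 0.28 at 0.009%, and with spike-in scaling they were at -1.38 and -0.91.

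**Figure D3:**
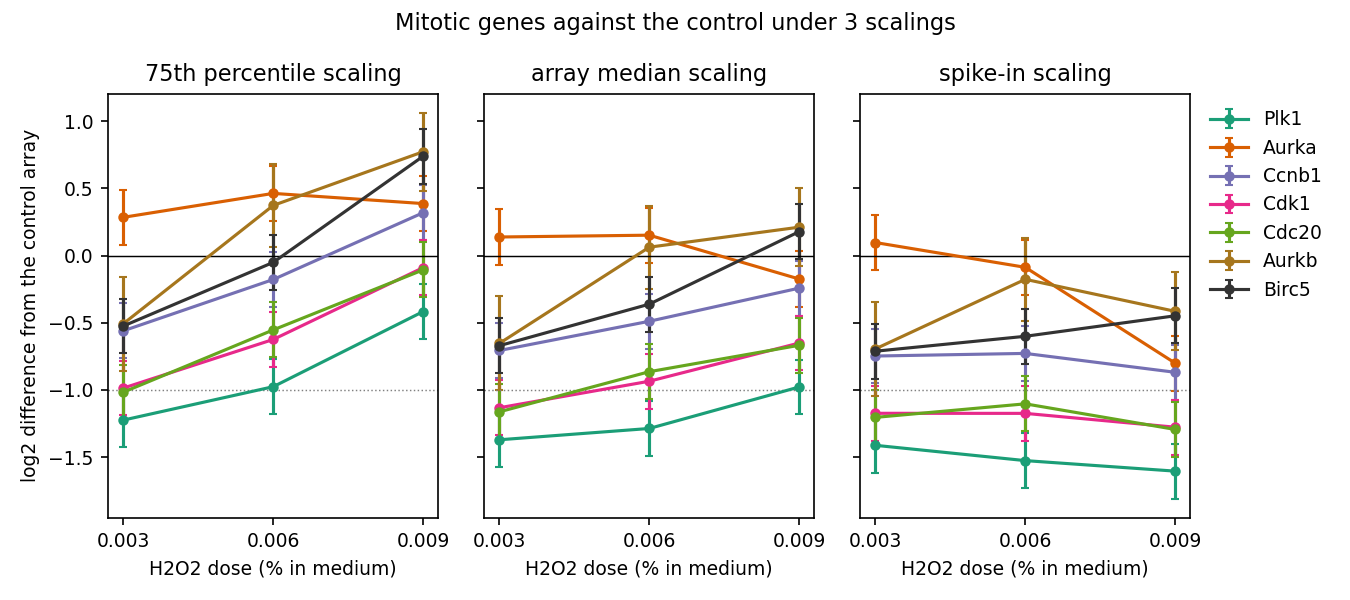
Log2 difference of 7 mitotic genes from the control at each H2O2 dose with 75th percentile, array median and spike-in scaling. Bars are the spot error, the solid line is the control and the dotted line 2-fold lower, and after 0.003% all lines but that of Aurka go up at each dose in the left panel, while in the right panel Birc5 alone does (-0.71, -0.60 and -0.45).

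Between the highest and the lowest H2O2 dose, all 7 members were higher at 0.009% than at 0.003%. Aurkb was at -2.35 at 0.009% and -3.63 at 0.003%, a difference of 1.28 ± 0.34, and Birc5 at 2.69 and 1.42, a difference of 1.26 ± 0.20. These 2 of the 7 were at least 2-fold higher and none was lower by that much, where 12.5% of 22219 features were higher and 5.59% lower. None of the 7 was below its value at 0.003%, against 43.4% of features well above background on both arrays. Cdc20, Cdk1, Ccnb1 and Plk1 differed by 0.91, 0.90, 0.88 and 0.81, each ± 0.20, and Aurka by 0.10 ± 0.21, within the spot error. With array median scaling or the deposited values none of the 7 was 2-fold higher, and with quantile normalization or normexp 1 was, Birc5, with Aurkb at 0.94 and 0.28. The median was 0.90 for the members and 0.17 for all features. With spike-in scaling, Birc5 stayed higher at 0.009% (0.26 ± 0.20), while Aurkb was within the spot error (0.28 ± 0.34). Plk1, Cdc20, Cdk1 and Ccnb1 were within the spot error too, at -0.19 to -0.09. Aurka was at -0.90, so that none of the 7 was 2-fold lower, where 43.2% of features were.

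The course of lowest at 0.003% and higher at each further dose was shown by 6 of the 7 members, by 13 of 40 other mitosis genes well above background on all arrays, and by 27.7% of 18106 such features. It depended on the scaling: with spike-in scaling 1 of the 7 members, Birc5 (-0.71, -0.60 and -0.45 from the control), 1 of the 40 other mitosis genes and 2.83% of features showed it. With array median scaling 6 of the 7 members, 12 of the 40 other mitosis genes and 16.9% of features did. The course was common on these arrays and not one of mitosis genes alone. Fibroblast markers shared it: 6 of 10 were on the array, Col1a2, Col3a1 and Pdgfrb were well above background on all 4 arrays and Thy1, Dcn and Lum on none, and the summed signal of the 6 over the 75th percentile was 32.1, 9.25, 13.3 and 19.7 from the control to 0.009%. The part of such cells in the result was not tested. Of 7 macrophage markers 3 or 4 were well above background, Cd14 and Cd68 among them on all arrays, and their sum was 42.2, 27.3, 22.6 and 23.6. Of 4 endothelial markers Kdr alone was, and their sum was 0.17, 0.26, 0.33 and 0.42. The sum of the 14 tubular epithelial markers, of which Krt8 was the brightest on every array, was 64.3, 59.0, 47.5 and 41.8. With 75th percentile scaling, the tubular markers Cdh16, Aqp1, Krt19 and Ggt1 shared the course too, Ggt1 at levels of 0.91, 0.70, 0.72 and 0.83. Krt8 was lower and Krt18 higher at each further dose. At 0.003%, Col1a2, Col3a1 and Pdgfrb were at -1.96, -1.74 and -2.17 from the control. Aqp1, Cdh16, Krt19 and Ggt1 were at -2.11, -1.08, -0.26 and -0.21.

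Likeness of course was measured as the root mean square distance between levels over the 4 arrays, after each gene was centred on its own mean. Of 4977 named genes well above background on all arrays and not members, Bcat2, Cdk16, Atcay, Sirt5 and Myh7 lay nearest to the median course of the members, at 0.06 to 0.07. Among the members, Ccnb1 was nearest to that course at 0.07 and Aurka farthest at 0.39, where the median of the 4977 genes was 0.43. The members set that course themselves, so their own distances are small in part by construction and are no measure of likeness against the 4977 genes. Nearest to Plk1 were Aldoc, Pdss2, Lmbr1l, Galk1 and Galk2, at 0.02 to 0.04, before Cdk1 at 0.14 and Cdc20 at 0.16.

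A straight line over the 4 doses was fitted with limma across 23770 features. It called 0% of them at an adjusted p of 0.05, with 3262 at an unadjusted p under 0.05, and none of the members, whose adjusted p lay between 0.489 for Aurkb and 0.988 for Cdk1. The slopes of the members ran from -0.10 ± 0.23 (SE) per step of 0.003% for Plk1 to 0.32 ± 0.17 for Aurkb. With only 2 residual degrees of freedom, a course that turns after 0.003% enters the residual. Fitted to the 3 H2O2 arrays alone, with 1 residual degree of freedom, the line again called 0% of the features, and 6 of the 7 members had an unadjusted p under 0.05, as did 9960 of the 23770 features. The slopes were then 0.63 ± 0.10 per step for Birc5 (limma, adjusted p = 0.0635), 0.64 ± 0.11 for Aurkb (adjusted p = 0.0661) and 0.05 ± 0.09 for Aurka (adjusted p = 0.689).

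Other genes of mitosis were taken from 8 lists written with earlier results of these data known. Leaving out the members, 44 of 120 list genes had a named probe. Of 41 compared at 0.003%, 4 were at least 2-fold lower (Ccnb2, Cenpi, Kifc1 and Rbl2) and 4 higher (Arpp19, Zwint, Nfya and Nfyb), with a median of -0.12 against 0.03 for all features. Cenpi was well above background in the control only, and without it 3 were lower. At 0.006%, 2 of 42 were lower and 5 higher, with a median of -0.02, and at 0.009% 1 of 41 was lower and 2 higher, with a median of 0.04. These shares lie below those of all features given above.

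Among genes of mitotic entry, Ccnb2 and Ccna2 had the course of the 6 members with 75th percentile scaling. Ccnb2, the second B-type cyclin, had signals of 363, 166, 261 and 308, with differences of -1.03, -0.29 and 0.34, and at 0.009% it was -0.23 when scaled to the array median and -0.85 when scaled to the spike-ins. Ccna2, which encodes cyclin A2, was at -0.97, -0.69 and -0.20. Cdc25a, a phosphatase that activates Cdk kinases, was at 0.89, 0.65 and -0.06, and Arpp19, an inhibitor of the phosphatase PP2A in mitosis, at 1.36, 1.07 and 0.86, the last -0.33 with spike-in scaling. Of the list's other genes than the members, 6 to 7 were compared at each dose.

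Spindle and cytokinesis genes had a median of -0.73 at 0.003%, -0.54 at 0.006% and 0.01 at 0.009%, with 6, 6 and 4 of 8 below the control. Of features well above background on both arrays, 48.4, 47.9 and 45.3% were below it. Kifc1, a minus-end kinesin, was at -1.12, -0.69 and -0.30, Tacc3, a spindle microtubule protein, at -0.93, -0.64 and -0.17 (from dim signals of 17.1 to 35.2), and Spag5, astrin, at -0.87, -0.43 and -0.04. Stmn1, a microtubule-destabilising protein, was at 0.04, 0.41 and 0.81, the last -0.38 with spike-in scaling. All 8 were higher at 0.009% than at 0.003%, by 0.51 to 0.83, where the median of all features was 0.17. Of features well above background on both arrays, 43.4% were lower. With spike-in scaling all 8 were lower, at -0.49 to -0.17, where the median of all features was -0.87.

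Centromere and kinetochore genes had a median of -0.59, -0.20 and 0.24, with 5, 5 and 2 of 6 below the control. Of features well above background on both arrays, 48.4, 47.9 and 45.3% were below it. Cenpi, counted among the 6 genes at each dose, was well above background in the control only. Spc25 and Nuf2, subunits of the complex that binds microtubules at the kinetochore, were at -0.78, -0.44 and 0.08, and at -0.58, -0.04 and 0.39. Cenpt, which anchors that complex, was at -0.61, 0.00 and 0.63, and Cenpn, another centromere protein, at 0.64, 0.82 and 0.83. The values above 0 at 0.009% were negative with spike-in scaling, for Spc25 and Nuf2 also with array median scaling.

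Genes of the APC/C and mitotic exit other than Cdc20 had medians of -0.12, 0.01 and 0.11 over 5 genes. Pttg1, which encodes securin, a substrate of the APC/C, had signals of 6121, 5216, 7467 and 8435 and was at -0.12, 0.48 and 1.04, the last -0.15 with spike-in scaling. The APC/C subunits Cdc26, Anapc5 and Cdc27 were at 0.11, 0.06 and -0.52 at 0.009%. Genes of chromosome structure had medians of -0.27, -0.38 and -0.42 over 6 genes, and Ncapd3, a condensin II subunit, was at -0.55, -1.04 and -1.03. Ncaph2, of the same complex, was at -0.68, -0.45 and -0.33, and the cohesin subunits Smc1a and Smc3 were at -0.56 and -0.51 at 0.009%.

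**Figure D4:**
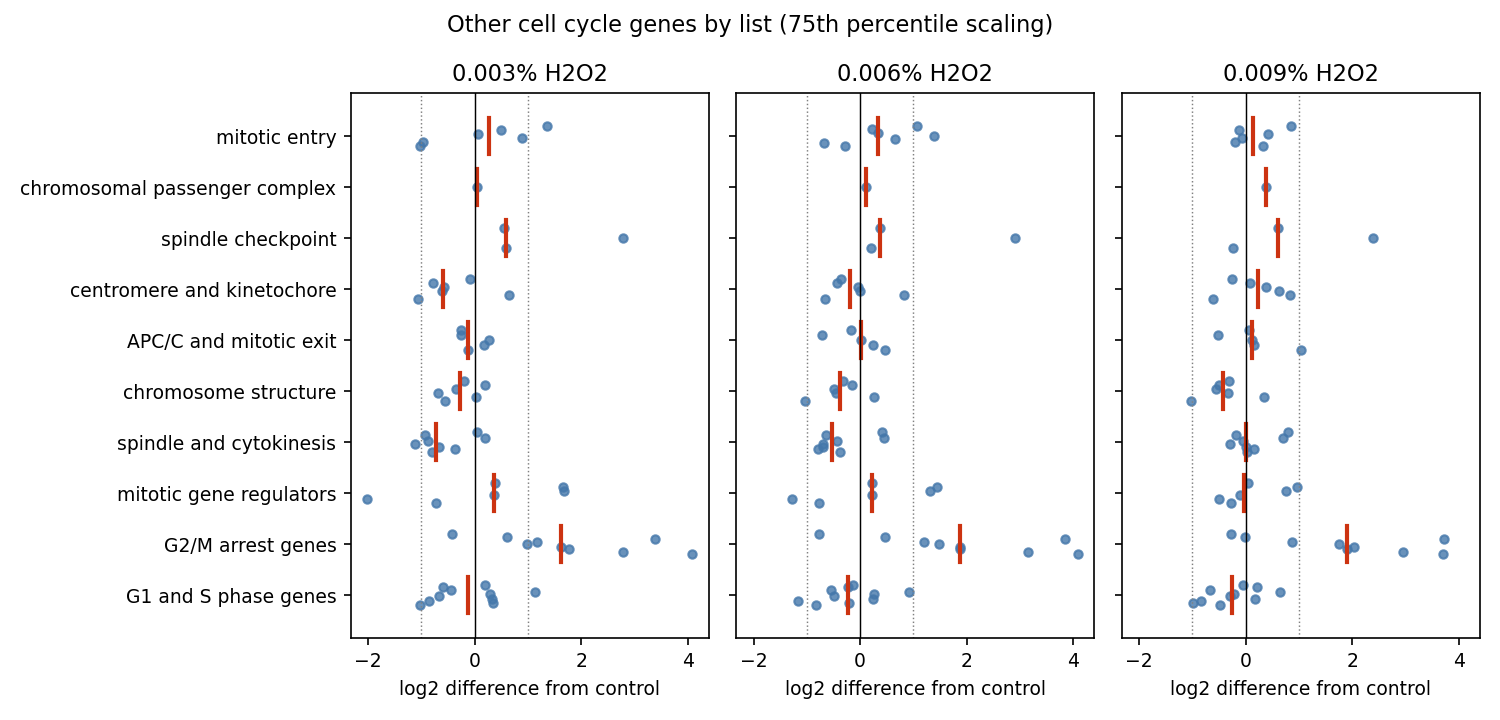
Log2 difference from the control of the other genes of each list at 0.003, 0.006 and 0.009% H2O2, with 75th percentile scaling. Points are genes, red bars list medians and dotted lines 2-fold, and G2/M arrest genes lie to the right with medians of 1.62, 1.87 and 1.91.

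Of 9 genes that arrest cells before mitosis, 6, 7 and 6 were at least 2-fold higher than the control at the 3 doses, where 15.2, 15.5 and 16.9% of all features were, and none was 2-fold lower. Those below the control, named after their values were seen, were the checkpoint kinases Chek2 at all doses (-0.43, -0.78 and -0.28) and Chek1 at 0.009% (-0.02). Cdkn1a, the Cdk inhibitor p21, had signals of 485, 7663, 7254 and 4243 and was at 4.09, 4.09 and 3.70. Gadd45a, which inhibits the Cdk1 complex, was at 2.78, 3.16 and 2.95, Gadd45g at 1.62, 1.87 and 2.04, and Plk2, a stress-induced relative of Plk1, at 3.38, 3.84 and 3.73. Of these 4, all stayed above the control at every dose with spike-in scaling. The count at 0.009% did depend on the scaling. With spike-in scaling, Cdkn1a, Gadd45a and Plk2 were still at least 2-fold higher at 0.009% (2.51, 1.76 and 2.55). Gadd45g, Gadd45b and Btg2 were at 0.85, 0.72 and 0.56, and Ccng1, Chek1 and Chek2 were below the control (-0.31, -1.20 and -1.47). These differences and those of the members share the control array.

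Of 10 G1 and S phase genes, 5, 7 and 7 were below the control at the 3 doses, with medians of -0.12, -0.23 and -0.26. The share of features below the control, among those well above background on both arrays, was 48.4, 47.9 and 45.3%. Ccnd1, cyclin D1 of the G1 phase, was at -1.03, -0.83 and -0.48, Ccnd3 at -0.86, -1.16 and -0.83, and Ccnd2 at 0.35, -0.22 and -0.98. Pcna, the sliding clamp of DNA replication and also a p53 target, was at 1.13, 0.92 and 0.65, the last -0.54 with spike-in scaling. Ccnd1 thus had the same order of doses as Cdk1 and Cdc20, while Ccnd2 had a different one. Foxm1, the transcription factor that drives genes of G2 and mitosis, had signals of 657, 369, 335 and 367 and was at -0.73, -0.78 and -0.27.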

How the data were processed

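Per the file headers, the authors used Feature Extraction 10.7.3.1 of Agilent to read the arrays (protocol GE1_107_Sep09, design 014879), and the deposited spot signal is a linear intensity after background subtraction and detrending, with an error in the same unit and without scaling of one array to another. The values in the deposited table are a linear ratio: a probe's mean signal divided by the median noncontrol spot of its array, which matched in 100% of probes to within 1e-06.

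Outlier spots were left out, log2 signals of a probe's spots were averaged, and the 75th percentile of each array, as log2, was subtracted. Of 41012 probes 41007 were used, and 10825 were named through RefSeq accessions (GRCr8 table, names only). A feature is a named gene or an unnamed probe. A feature entered a comparison if either array had it well above background. The other side, if not, took the lowest signal well above background on its array unless its own was higher, which gives a bound, and bounds pointing the wrong way were dropped. A difference of 2-fold is a rule of size. The trend used limma 3.58.1 in R 4.3.3 and was tested on simulated data, and p-values were adjusted by Benjamini-Hochberg over all features.

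With 1 array per dose no p-value compares single doses, and precision is limited by how few arrays there are. The members and gene lists were chosen with earlier results of these data known. The genes named are the members, the 4 of each list furthest from the control among those well above background, a few cell cycle genes always named, and the 5 nearest in course. Alternatives were spike-in, array median and quantile scaling, normexp (offset 50), the deposited values, the mean of all probes, a stricter filter and no spots left out.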

Additional observations from a re-analysis of the deposited data

How the results depend on the processing

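At 0.003% the median difference of the members, -0.56, moved beyond the spot error only with the mean of all probes, to -0.80. At 0.006% it was -0.73 with spike-in scaling and -0.49 with array median scaling or the deposited values, against -0.18. At 0.009% it was -0.87 with spike-in scaling and -0.24 with array median scaling or the deposited values, against 0.32. Between 0.009% and 0.003% it was -0.10 with spike-in scaling and 0.48 with the other 2 settings, against 0.90. Quantile normalization, normexp, a stricter filter and keeping all spots left these 4 medians within the spot error. The number of members lowest at 0.003% and higher at each further dose, 6, was 1 with spike-in scaling and 6 under the other 7 alternatives, which were set for this count after seeing the data. Of all features, 2.83% showed this course with spike-in scaling and 16.9 to 27.7% under the others. Among those others, the deposited values repeat array median scaling, and a stricter filter and keeping all spots left the values of the members unchanged. Array median and spike-in scaling move all features of an array together by construction. The trend called 0 features in all 10 alternatives, with 2065 to 9960 at an unadjusted p under 0.05. Of the other mitosis genes, 4 were 2-fold lower at 0.003%, and 7 with spike-in or array median scaling or the deposited values, 2 with normexp, and 13 at 1.5-fold. The files hold no mean spot signal, so normexp used the median spot and background signals. Dim signal limits Aurkb most, whose spot error reached 0.35. No paired analysis was possible because each dose has 1 array.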

Other observations

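Regulators of mitotic genes differed in direction. Rbl2, which encodes the pocket protein p130 of the DREAM repressor complex, had signals of 1648, 378, 599 and 781 from the control to 0.009% and was at -2.02, -1.27 and -0.50 from the control, and it stayed below the control with array median (-2.16, -1.58 and -1.07) and spike-in scaling. Its course was lowest at 0.003% and higher at each further dose, as in 6 of the 7 members with 75th percentile scaling. Nfya and Nfyb, subunits of the CCAAT-binding factor NF-Y, were at 1.68, 1.31 and 0.77, and at 1.66, 1.43 and 0.96, with the values at 0.009% turning to -0.42 and -0.23 with spike-in scaling.

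Zwint, a kinetochore protein of the spindle checkpoint, stood apart from the other mitosis genes, with differences of 2.78, 2.90 and 2.39 that stayed above 0 with spike-in scaling at 2.59, 2.35 and 1.20. The checkpoint protein Bub3 was at 0.58, 0.20 and -0.23, and Zw10, a partner of Zwint at the kinetochore, at 0.55, 0.38 and 0.60 from dim signals of 12.5 to 17.0.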
